A study of Mus musculus with 6 samples.

Results

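The genes described here mark the antibody-producing arm of the colon: the B cell genes Ms4a1, Cd79a and Cd79b, the plasma cell genes Jchain, Mzb1, Tnfrsf17, Pou2af1 and Derl3, and Pigr, which carries IgA across the epithelium. They are 9 of the 24517 genes in the count tables, selected on their role and on earlier readouts of these same counts, the genotype differences and library levels of the genes. Those values are therefore given as a description and not as a test. The study compared colon RNA of mice lacking NSD2, a histone methyltransferase that dimethylates lysine 36 of histone H3, in the intestine (NSD2∆IE, n = 3) with that of floxed controls (NSD2fl/fl, n = 3). Per the labels, both groups were on 16 weeks of HFCD, a diet rich in fat and cholesterol, and the study's methods give Villin-Cre, which acts in the intestinal epithelium, and a C57BL/6J background. Villin is an epithelial gene, and B lineage cells do not normally use it. The study's text gives a longer time on HFCD for these colons than the labels do, and the labels were followed here. The labels give neither age nor sex, nor do they say whether the 3 libraries of a group came from separate animals, so the spread reported here is that between these libraries.

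B cells carry the receptor pair encoded by Cd79a and Cd79b and the surface protein CD20, encoded by Ms4a1, and in the colon they gather in lymphoid follicles. After activation they can become plasma cells, which lie in the lamina propria, enlarge their endoplasmic reticulum (ER) and secrete IgA. The J chain links IgA into dimers, and the polymeric immunoglobulin receptor (Pigr) on epithelial cells takes these dimers to the lumen. The ER of a secretory cell depends on chaperones and on ER-associated degradation (ERAD), the removal of misfolded proteins, in which the derlins take part. The question posed of these genes was whether the content of secretory cells went with the level of ER genes across the colon libraries.

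The libraries held 38041832 to 38604680 counts, and 20334 to 21312 genes had reads. All 9 genes passed the filter on low counts and were among the 16347 genes tested. Nsd2, the targeted gene, stood at 47.8, 59.1 and 68.9 CPM (a gene's count relative to the TMM-scaled library total) in NSD2fl/fl replicates 1 to 3 and at 24.5, 23.1 and 27.5 CPM in NSD2∆IE, with no overlap. The female-specific transcript Xist reached 24234, 21217 and 23403 counts in NSD2∆IE but only 4, 0 and 3 counts in NSD2fl/fl, although the study's methods describe male littermates. Genotype and this difference cannot be told apart in any comparison here. Along the first principal component (51.0% of the variance), NSD2fl/fl 1, NSD2fl/fl 3 and NSD2∆IE 1 lay on one side and NSD2fl/fl 2, NSD2∆IE 2 and NSD2∆IE 3 on the other. Hoxb13, a homeobox gene of the distal colon that was picked after its values were seen, had 365, 340 and 310 CPM in the former libraries and 0.706, 4.97 and 26.2 CPM in the latter. The labels do not give the stretch of colon taken, and the part of this division in the values below was not tested.

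The B cell genes varied more between libraries of a genotype than between genotypes. Ms4a1 had 405, 29 and 761 counts in NSD2fl/fl replicates 1 to 3, or 10.5, 0.82 and 21.4 CPM, against 465, 124 and 132 counts in NSD2∆IE replicates 1 to 3, or 11.7, 3.13 and 3.18 CPM. The highest library stood 26.1-fold above the lowest, and both were NSD2fl/fl. The 29 counts of NSD2fl/fl 2 have an exact Poisson 95% interval of 19.4 to 41.6 counts, which covers counting error only and leaves that library far below the others. Cd79a, which encodes one chain of the receptor's signalling pair, had 28.0, 6.73 and 37.7 CPM in NSD2fl/fl and 26.8, 8.76 and 8.77 CPM in NSD2∆IE. Cd79b, its partner, had 18.8, 3.25 and 23.1 CPM in NSD2fl/fl and 16.3, 5.73 and 6.46 CPM in NSD2∆IE. In all 3 genes the same 3 libraries were high and the same 3 low, as in the division by principal component, and NSD2fl/fl 2 was the lowest.

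Fitted differences for the B cell genes were correspondingly uncertain. The log2 fold change of NSD2∆IE against NSD2fl/fl was -0.86 (SE 1.03) for Ms4a1, -0.71 (SE 0.69) for Cd79a and -0.67 (SE 0.72) for Cd79b. Among libraries on one side of the principal component, Ms4a1 was lower in NSD2∆IE by a log2 difference of -0.35 (1 NSD2∆IE against 2 NSD2fl/fl), and on the other it was higher by 1.88 (2 against 1). Without NSD2∆IE replicate 1 the fitted value of Ms4a1 was -1.78, and without NSD2fl/fl replicate 3 it was 0.07.

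**Figure D1:**
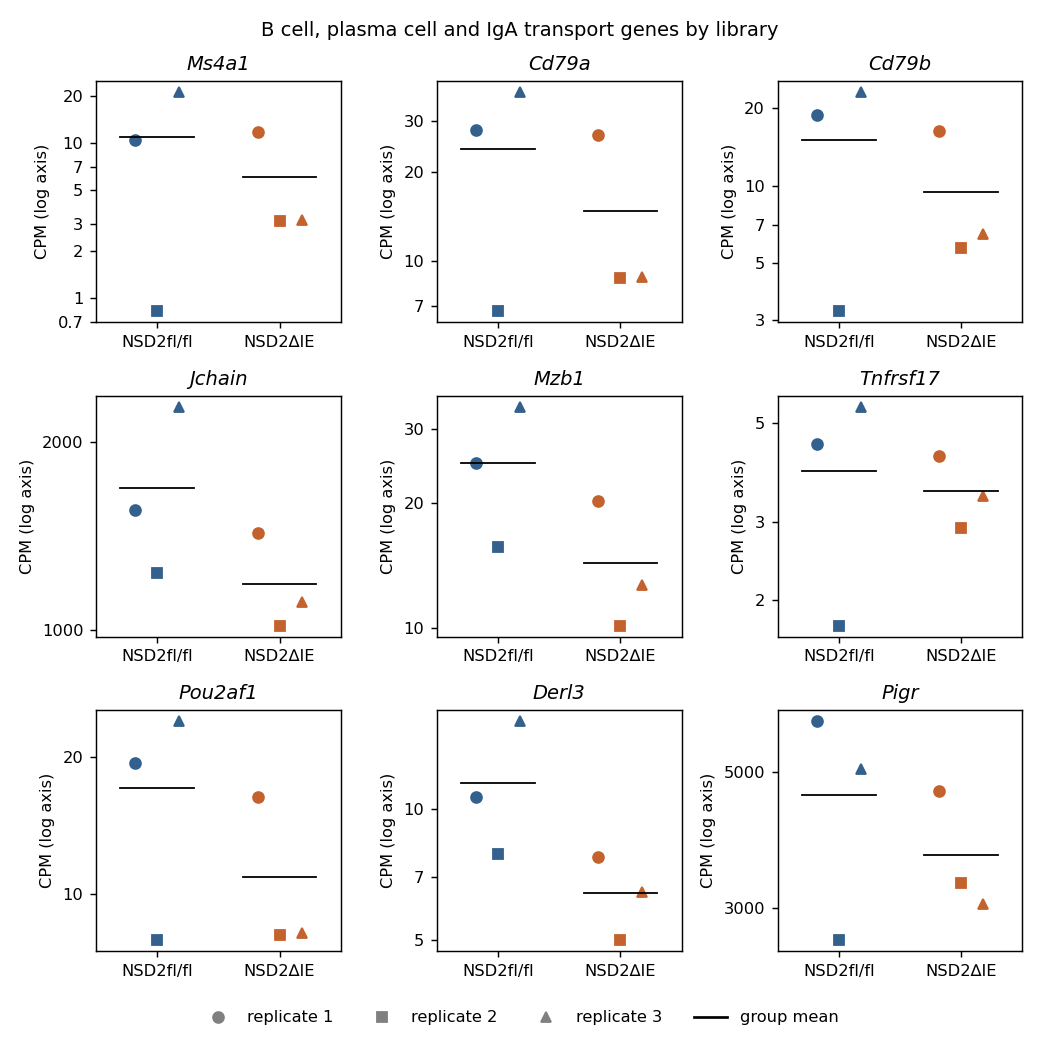
CPM of each of the 9 genes in each library on a log axis, with NSD2fl/fl in blue and NSD2∆IE in orange, symbols for the replicate and lines at the group means. NSD2fl/fl 2 lies lowest for the 3 B cell genes, and Derl3 is the only panel in which the groups do not overlap, by a margin of 7.88 against 7.77 CPM.

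Plasma cell genes spread less, and their order among libraries was not quite that of the B cell genes. Jchain, the J chain of dimeric IgA, had 1557, 1235 and 2277 CPM in NSD2fl/fl and 1428, 1015 and 1107 CPM in NSD2∆IE. Its highest library was 2.24-fold above its lowest, and the groups overlapped because NSD2∆IE 1 exceeded NSD2fl/fl 2. Mzb1, an ER protein of B and plasma cells that helps assemble and secrete antibody, had 24.9, 15.7 and 34.0 CPM in NSD2fl/fl and 20.2, 10.1 and 12.7 CPM in NSD2∆IE. Here too a single NSD2∆IE library, replicate 1, stood above the lowest NSD2fl/fl library.

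Tnfrsf17 encodes BCMA, the receptor for plasma cell survival factors, and Pou2af1 encodes the octamer coactivator of B lineage cells. Tnfrsf17 had 4.49, 1.75 and 5.45 CPM in NSD2fl/fl and 4.21, 2.90 and 3.42 CPM in NSD2∆IE, with the lowest value in NSD2fl/fl 2. Pou2af1 had 19.4, 7.91 and 24.0 CPM in NSD2fl/fl and 16.4, 8.12 and 8.20 CPM in NSD2∆IE. Both genes thus had the library order of the B cell genes in that NSD2fl/fl 2 was the lowest, whereas for Jchain, Mzb1 and Derl3 the lowest library was NSD2∆IE 2. The log2 fold changes were -0.51 (SE 0.275) for Jchain, -0.79 (SE 0.353) for Mzb1, -0.15 (SE 0.421) for Tnfrsf17 and -0.65 (SE 0.458) for Pou2af1. That of Tnfrsf17 was 0.16 without NSD2fl/fl replicate 3.

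Derl3 is a derlin of the ERAD machinery that is abundant in plasma cells. Its counts were 411, 279 and 567 for NSD2fl/fl against 308, 198 and 268 for NSD2∆IE, which correspond to 10.7, 7.88 and 15.9 CPM against 7.77, 4.996 and 6.46 CPM. On this scale every NSD2∆IE library lay below every NSD2fl/fl library, by the narrow margin of NSD2∆IE 1 to NSD2fl/fl 2. Scaled by library totals alone the groups overlapped, with 5.95 FPKM (counts scaled to gene length and library total) in NSD2∆IE 1 above 5.42 FPKM in NSD2fl/fl 2. The means were 11.5 ± 4.08 CPM in NSD2fl/fl and 6.41 ± 1.39 CPM in NSD2∆IE (SD, n = 3 per group), and the fitted log2 difference was -0.84 (SE 0.301). On either side of the principal component Derl3 was lower in NSD2∆IE, by log2 differences of -0.74 and -0.47, and so was Mzb1, by -0.52 and -0.46.

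Derl3 lies at chr10:75893398-75895941 of GRCm38.p6, the mm10 build that the submitters list, and the bases before its start are shown because they hold an ER stress response element, a sequence shared with the chaperone genes to which Derl3 is compared below. The element was searched as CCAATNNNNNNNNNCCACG on both strands from 250 bases before to 50 after each start in the RefSeq table. It occurred in 39 of 32851 windows (0.119%), and among the 6 of the 9 genes with a window (Cd79a, Jchain, Tnfrsf17, Pou2af1, Derl3 and Pigr) it occurred in Derl3 alone. The 250 bases before the start of Derl3 are at chr10:75893148-75893397 on the plus strand, with the fixed letters of the element, which lies on the minus strand, in capitals.
Derl3: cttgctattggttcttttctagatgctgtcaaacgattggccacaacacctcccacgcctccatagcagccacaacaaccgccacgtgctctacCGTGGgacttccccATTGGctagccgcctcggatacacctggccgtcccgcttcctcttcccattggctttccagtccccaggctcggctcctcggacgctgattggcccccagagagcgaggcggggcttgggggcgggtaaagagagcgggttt

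Set beside each other on the strand of the motif, the elements of Derl3, of the plasma cell list gene Creld2 and of the ER genes Hspa5 and Syvn1 share the capital letters by the way they were searched and differ in the 9 bases between.
Derl3, chr10:75893242-75893260, minus strand: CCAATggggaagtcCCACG
Creld2, chr15:88819520-88819538, minus strand: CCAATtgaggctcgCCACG
Hspa5, chr2:34772025-34772043, plus strand: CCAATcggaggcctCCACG
Syvn1, chr19:6046532-6046550, plus strand: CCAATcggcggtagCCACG
They begin 156, 126, 65 and 44 bases before the respective start. Of the 61 ER genes with a window, 8 held the element (Calr, Canx, Dnajc3, Ero1b, Hsp90b1, Hspa5, Pdia6 and Syvn1), and of the 17 B cell list genes with a window none did.

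A second unfolded protein response motif, TGACGTGG, occurred in 0.676% of all windows and in that of Pou2af1, a gene at chr9:51213690-51240079. It lies 61 to 54 bases before the start and is capitalised in the 250 bases at chr9:51213440-51213689 on the plus strand, shown because Pou2af1 is the only one of the 6 genes with a window to hold this motif.
Pou2af1: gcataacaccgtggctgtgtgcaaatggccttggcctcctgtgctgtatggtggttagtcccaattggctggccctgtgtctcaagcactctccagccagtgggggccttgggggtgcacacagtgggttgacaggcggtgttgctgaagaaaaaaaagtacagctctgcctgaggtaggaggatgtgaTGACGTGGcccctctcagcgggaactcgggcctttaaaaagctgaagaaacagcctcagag
The octamer ATGCAAAT, found in 1.74% of windows, and the compact element known as ERSE-II, found in 0.0365%, were in none of the 6. These matches describe letters only and say nothing of which factor binds there.

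Pigr, at chr1:130826684-130852249, is made by the epithelium and not by B lineage cells, but its library order resembled theirs. It had 6062, 2661 and 5063 CPM in NSD2fl/fl and 4659, 3295 and 3049 CPM in NSD2∆IE, with NSD2fl/fl 2 the lowest. Its log2 fold change was -0.33 (SE 0.357), and within the sides of the principal component it was -0.25 and 0.25. Counts of Jchain per 1000 Pigr counts came to 257, 464 and 450 among controls and to 306, 308 and 363 in NSD2∆IE, so the proportion of J chain to its receptor spanned a wider range among controls.

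Compared per length, Pigr was the highest of the 9 with a mean of 1074 FPKM over the 6 libraries and Jchain followed with 678 FPKM, and this order held in 6 of 6 libraries. Mzb1 at 21.4 FPKM and Cd79a at 19.3 FPKM came next and could not be ordered, since Mzb1 was the higher in 3 libraries. Cd79b stood at 9.92 FPKM, Derl3 at 6.58 FPKM and Pou2af1 at 5.41 FPKM, each above the next in 5 of 6 libraries. Ms4a1 at 2.80 FPKM and Tnfrsf17 at 2.73 FPKM were likewise not separated. The transcripts of dimeric IgA transport were thus far above those of every other listed gene in these colons.

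Between genotypes, all 9 genes had a fitted log2 fold change below 0, with a median of -0.67, against a median of -0.04 over all genes tested, of which 9202 were below 0 and 7145 above. The median of the 9 was -1.06 without NSD2∆IE replicate 1, -1.03 without NSD2fl/fl replicate 2 and -0.44 without NSD2∆IE replicate 2. It was -0.24, with 7 of the 9 below 0, when NSD2fl/fl 3 was left out. Scaling by library totals alone moved the median of all genes from -0.04 to 0.09 and left all 9 below 0. At an adjusted p under 0.05 (edgeR quasi-likelihood test, Benjamini-Hochberg), none of the 9 was called, as with DESeq2 and limma-voom, where edgeR called 0.0306% of all genes (0.0245% lower and 0.00612% higher), and 1 of the 9 had an unadjusted p under 0.05, as did 11.1% of all genes. At the study's threshold, an unadjusted p under 0.05 with a log2 fold change beyond 0.322 in size, only Derl3 was called lower, beside 2.21% of all genes, and none higher, beside 8.05%. With library totals alone Derl3 was not called, and all-gene calls were 142 lower and 1717 higher in place of 361 and 1316. With upper-quartile factors they were 200 and 1577. No call among the 9 was left without NSD2fl/fl replicate 3, NSD2∆IE replicate 2 or NSD2∆IE replicate 3, where lower calls over all genes were 448, 194 and 146. Cd79b, Jchain, Mzb1, Pou2af1 and Derl3 were called without NSD2fl/fl replicate 2, beside 596 lower calls over all genes. Mzb1 and Derl3 were called without NSD2∆IE replicate 1, beside 620. Derl3 was also the only gene without overlap between groups, a state shared by 7.28% of all genes in the lower direction and 11.4% in the higher. With the side of the principal component as a covariate, a fit added after the data were seen, 5 of the 9 were below 0.

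**Figure D2:**
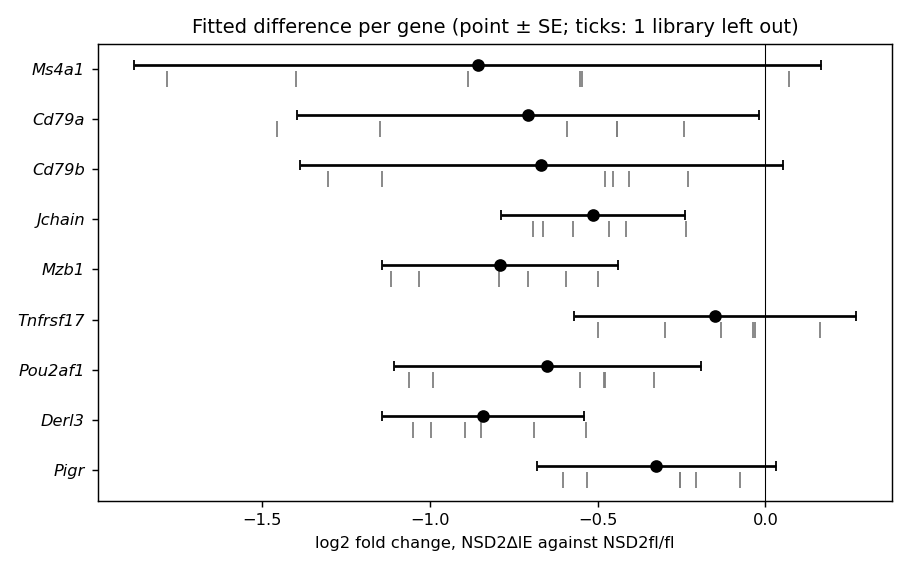
Fitted log2 fold change of NSD2∆IE against NSD2fl/fl for each gene (points, with bars of 1 SE), and the value with each library left out in turn (grey ticks). The points run from -0.86 for Ms4a1 to -0.15 for Tnfrsf17, and the ticks of Ms4a1 and Tnfrsf17 cross 0.

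B cell and plasma cell levels went together across libraries. The mean log2 CPM of Ms4a1, Cd79a and Cd79b was 4.15, 1.43 and 4.73 in NSD2fl/fl and 4.11, 2.45 and 2.51 in NSD2∆IE. For the 5 plasma cell genes it was 5.03, 4.22 and 5.46 in NSD2fl/fl and 4.78, 4.05 and 4.27 in NSD2∆IE. Over the 6 libraries Pearson's r was 0.91 and Spearman's rho 0.94, with r of 0.98 after the group means were removed and 0.96 without the 2 libraries farthest from the median. The plasma cell mean includes Pou2af1 and Tnfrsf17, which had the library order of the B cell genes. Their r with Cd79a was 0.99 and 0.89, against 0.88 for Mzb1, 0.86 for Jchain and 0.77 for Derl3. Since the libraries fall into 2 sets of 3 on both measures, and all points share their library with its scaling, the relation could not be tested and is given as a description only. In bulk tissue, fewer cells of a type and less RNA per cell cannot be told apart.

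The ER genes did not have the order of the plasma cell genes. The mean log2 CPM of the 76 ER folding and translocation genes tested was 6.68, 6.92 and 7.19 in NSD2fl/fl, and 6.71, 6.70 and 6.72 in NSD2∆IE. Its SD was 0.254 in NSD2fl/fl and 0.00893 in NSD2∆IE (n = 3 each), so nearly all of its spread came from the controls. NSD2fl/fl 1 had the second highest plasma cell level and the lowest ER level of the 6 libraries, whereas NSD2fl/fl 2 had the second lowest plasma cell level and the second highest ER level. Pearson's r was 0.54 and rho 0.20 over 6 libraries, r was 0.32 after the group means were removed, and it was -0.23 without the 2 libraries farthest from the median, NSD2fl/fl 1 and NSD2fl/fl 3. Without NSD2fl/fl replicate 3 alone it was -0.37, and with any other library left out it ran from 0.47 to 0.74, so the positive value rests on NSD2fl/fl 3. Without Derl3 among the plasma cell genes r was 0.48. Taken singly, r with the ER level was 0.73 for Jchain, 0.72 for Derl3 and 0.60 for Mzb1, against 0.39 for Pou2af1 and 0.16 for Tnfrsf17. Without the 2 libraries farthest from each gene's own median, these values were all below 0, from -0.43 for Tnfrsf17 to -0.21 for Derl3.

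**Figure D3:**
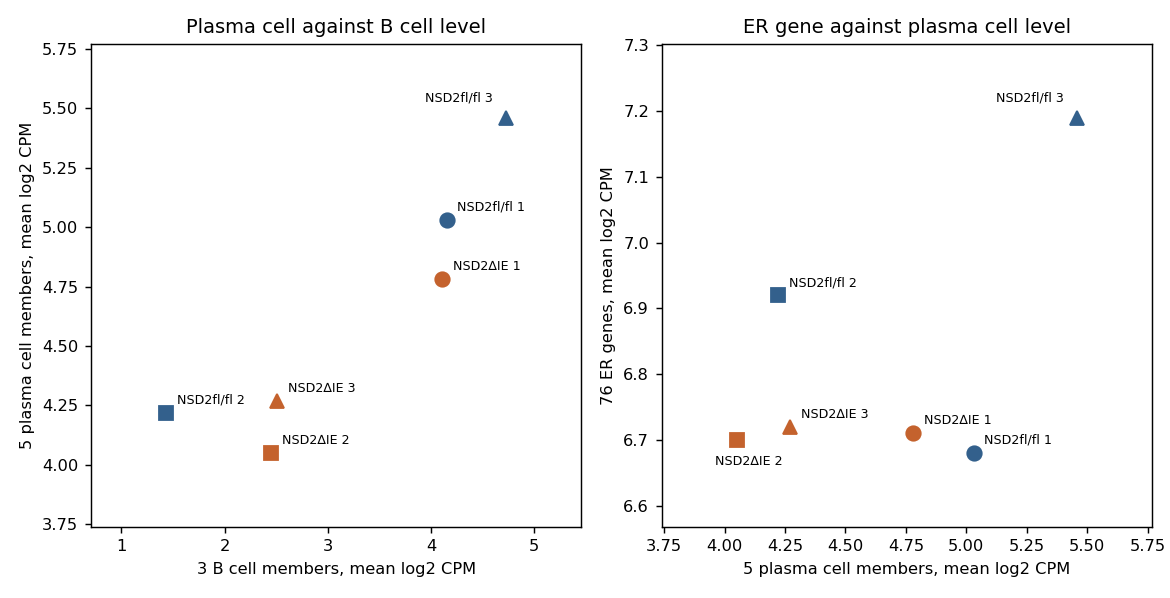
Mean log2 CPM of the 5 plasma cell genes against that of the 3 B cell genes (left), and of the 76 ER genes against that of the 5 plasma cell genes (right), 1 point per library. The 3 libraries with the higher B cell levels are those with the higher plasma cell levels, whereas the 3 NSD2∆IE libraries share an ER level of 6.70 to 6.72 across plasma cell levels of 4.05 to 4.78.

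Counts of Derl3 were next set against a plasma cell partner and against an ER chaperone within each library, which removes the library scaling. Per 100 Mzb1 counts, Derl3 had 42.9, 50.4 and 46.8 in NSD2fl/fl and 38.4, 49.3 and 51.0 in NSD2∆IE. The highest library was 1.33-fold above the lowest, and the means of 46.7 ± 3.73 and 46.2 ± 6.81 (SD, n = 3 per group) differed by less than the spread. Per 1000 Jchain counts Derl3 had 6.85, 6.39 and 6.99 in NSD2fl/fl and 5.44, 4.92 and 5.84 in NSD2∆IE, and these groups did not overlap. Mzb1 per 1000 Jchain counts had 16.0, 12.7 and 14.9 in NSD2fl/fl and 14.2, 9.99 and 11.5 in NSD2∆IE, which overlapped. Per 1000 counts of Hspa5, the ER chaperone BiP, Derl3 had 18.8, 8.14 and 8.04 in NSD2fl/fl and 9.77, 8.63 and 9.81 in NSD2∆IE. NSD2fl/fl 1 stood alone in that ratio, at 2.33-fold the lowest library. Tnfrsf17 per 100 Mzb1 counts was 18.1, 11.2 and 16.0 in NSD2fl/fl and 20.8, 28.6 and 27.0 in NSD2∆IE, higher in every NSD2∆IE library. Lack of overlap was not particular to Jchain as the partner of Derl3. Per 1000 Derl1 counts, Derl3 had 96.3, 71.5 and 120 in NSD2fl/fl and 70.9, 52.4 and 64.8 in NSD2∆IE, again without overlap. Its ratio to Derl2 overlapped. These ratios were taken from genes chosen with their values known and were not tested. The share of all gene pairs whose ratio separates the groups was not computed.

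**Figure D4:**
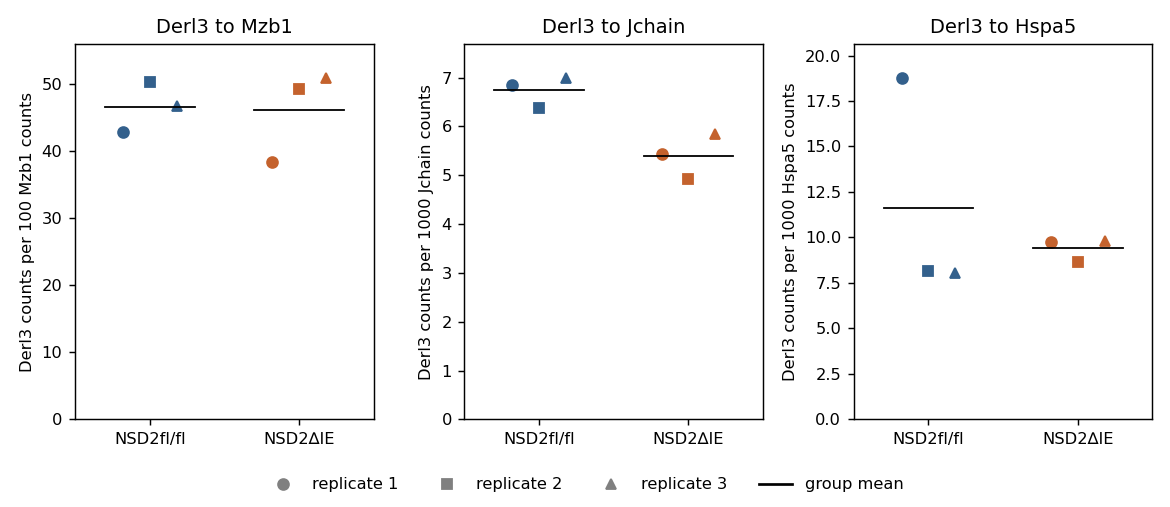
Derl3 counts per 100 Mzb1 counts, per 1000 Jchain counts and per 1000 Hspa5 counts in each library, with lines at the group means and axes from 0. The ratio to Mzb1 spans 38.4 to 51.0 in both groups together, the ratio to Jchain does not overlap between groups, and NSD2fl/fl 1 stands at 18.8 in the ratio to Hspa5.

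Among individual ER genes, the other derlins and the ERAD ligase complex were compared with Derl3. Derl1 had 111, 110 and 133 CPM in NSD2fl/fl and 110, 95.3 and 99.7 CPM in NSD2∆IE, and its log2 fold change was -0.22 (SE 0.12). Its r with Derl3 was 0.96 over 6 libraries and 0.76 without the 2 libraries farthest from the median of Derl3, NSD2fl/fl 3 and NSD2∆IE 2. For Derl2 the log2 fold change was -0.28 (SE 0.163), and the r with Derl3 was 0.71 over all libraries and -0.04 without those 2. Sel1l, the adaptor of the ERAD ligase, stood at -0.40 (SE 0.127) with an r of 0.92, or 0.75 without them. Hspa5 itself had 569, 968 and 1982 CPM in NSD2fl/fl and 796, 579 and 659 CPM in NSD2∆IE, and its r with Derl3 of 0.74 was -0.39 without them. The r of Edem1 went from 0.86 to 0.71, that of Ern1 from 0.80 to 0.99 and that of Syvn1 from 0.65 to 0.04. For Jchain and Mzb1, each with an r of 0.97 with Derl3, it went to 0.89 and 0.91. Whether an ER gene stayed with Derl3 in the remaining 4 libraries thus depended on the gene.

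Of the 76 ER genes, 69 were below 0 and 7 above, with a median log2 fold change of -0.23. That median was -0.34 without NSD2fl/fl replicate 1, -0.11 without NSD2fl/fl replicate 3 and -0.098 with library totals alone, the last beside an all-gene median of 0.09. None had an adjusted p under 0.05 by edgeR or limma-voom, 1 did by DESeq2 (Edem1), beside 466 of all genes, and 7 had an unadjusted p under 0.05, beside 11.1% of all genes. At the study's threshold 6 were lower and none higher, beside 2.21% and 8.05% of all genes. The count of 6 was 35 without NSD2fl/fl replicate 1, where lower calls over all genes went from 361 to 747, and it was 2 without any of NSD2fl/fl replicate 3, NSD2∆IE replicate 2 and NSD2∆IE replicate 3, or with library totals alone. The smallest p-values belonged to the oxidase gene Ero1a at -0.64 (SE 0.167), to Edem1, which takes misfolded glycoproteins to degradation, at -0.50 (SE 0.137), and to Sel1l, with edgeR adjusted p of 0.306, 0.312 and 0.344. Syvn1, the ERAD ligase, stood at -0.53 (SE 0.195) and the stress sensor Ern1 at -0.47 (SE 0.182), with edgeR adjusted p of 0.404 and 0.42. Ero1a, Edem1, Sel1l, Syvn1 and Ern1 were all among the 6 ER genes lower at the study's threshold.

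The wider plasma cell list of 22 genes, the 5 listed ones included, had 20 below 0, a median of -0.42 and 3 genes lower at the study's threshold, Cd38, Derl3 and Creld2. The share of all genes lower at that threshold was 2.21%. None of the 22 had an edgeR adjusted p under 0.05, 3 had an unadjusted p under 0.05 (11.1% of all genes), limma-voom called none and DESeq2 called 1, Cd38. The count of 3 at the study's threshold was 10 without NSD2fl/fl replicate 2 and 6 without NSD2∆IE replicate 1, where lower calls over all genes went from 361 to 596 and 620. It was 1 without NSD2fl/fl replicate 3 or NSD2∆IE replicate 3 and with library totals alone, where those calls were 448, 146 and 142, and 2 without NSD2∆IE replicate 2, where they were 194. Cd38 encodes an ectoenzyme that other cells also express, and its r with the plasma cell level was only 0.05. It had 154, 357 and 221 CPM in NSD2fl/fl and 108, 136 and 120 CPM in NSD2∆IE, a log2 fold change of -1.01 (SE 0.300, edgeR adjusted p = 0.323). Creld2, an ER stress gene, had 60.7, 94.1 and 165 CPM against 62.1, 48.5 and 60.9 CPM, at -0.90 (SE 0.346, edgeR adjusted p = 0.419). The highest Cd38 library was NSD2fl/fl 2, which was the lowest for B cell genes.

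Genes that define the plasma cell differed in their r with Derl3, which among its transcription factors was higher for Irf4 and Xbp1 than for Prdm1. Irf4 had 15.7, 8.51 and 18.9 CPM in NSD2fl/fl and 13.2, 9.36 and 9.26 CPM in NSD2∆IE, and its r with Derl3 was 0.86. Prdm1, which encodes Blimp-1 and is also made in epithelium, had 8.18, 16.4 and 9.07 CPM in NSD2fl/fl and 5.17, 9.26 and 5.69 CPM in NSD2∆IE, and its r with Derl3 was 0.11. Sdc1, which encodes the plasma cell and epithelial surface protein CD138, stood at -0.08 (SE 0.15) with an r of 0.25. Xbp1, the transcription factor activated by IRE1, had 334, 389 and 508 CPM against 362, 329 and 329 CPM, at -0.27 (SE 0.18) with an r of 0.79. Without NSD2fl/fl 3 and NSD2∆IE 2, the libraries farthest from the median of Derl3, the r of Xbp1 was -0.05. Over all 6 libraries the r with Derl3 thus ranged from 0.11 to 0.86 over these 4 genes.

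The B cell list of 24 genes, which includes the 3 listed ones, had 21 below 0 and a median of -0.64, which was 0.28 with the principal component covariate. With a library left out the median ran from -1.34 without NSD2∆IE replicate 1 and -1.10 without NSD2fl/fl replicate 2 to -0.35 without NSD2∆IE replicate 3 and -0.20 without NSD2fl/fl replicate 3. None was past the study's threshold or had an unadjusted p under 0.05, and edgeR, DESeq2 and limma-voom called none. Cr2, the complement receptor of follicular B cells, had 308, 6 and 365 counts in NSD2fl/fl against 220, 51 and 46 counts in NSD2∆IE. It resembled Ms4a1 in that NSD2fl/fl 2 was far below the rest. The smallest p-values of the list were those of Btk at -0.34, Cd74 at 0.31 and Cd22 at -0.82, with edgeR adjusted p of 0.721, 0.723 and 0.726. Of the 17 lymphoid follicle genes 12 were below 0, with a median of -0.16, no unadjusted p under 0.05 and no call by edgeR, DESeq2 or limma-voom. That median was 0.081 with NSD2fl/fl 3 left out, -0.47 with NSD2fl/fl 2 left out and -0.36 with NSD2∆IE 1 left out. The smallest p-values there were those of Ccl20, Fas and Rgs13 at -1.10, -0.32 and 0.41.

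Among 19 genes of the IgA niche, which supply, recruit or transport IgA cells, 12 were below 0 with a median of -0.08, which with a library left out ran from -0.21 (NSD2∆IE 1) to 0.012 (NSD2fl/fl 3). None had an adjusted p under 0.05 by edgeR, DESeq2 or limma-voom, 3 had an unadjusted p under 0.05 (11.1% of all genes), and 2 were higher at the study's threshold (8.05% of all genes). The 2 were Cxcl12, a stromal chemokine that retains plasma cells, at 0.52 (SE 0.144, edgeR adjusted p = 0.312) and Aldh1a2, which makes retinoic acid, at 1.36 (SE 0.424, edgeR adjusted p = 0.336). Traf3ip2, an adaptor of IL-17 signalling, stood at -0.28 (SE 0.11, edgeR adjusted p = 0.42). Ccl28, the epithelial chemokine that attracts IgA plasma cells, had 176, 58.6 and 180 CPM in NSD2fl/fl and 130, 72.1 and 66.9 CPM in NSD2∆IE, with the same high and low libraries as Ms4a1.

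Genes whose profile over the 6 libraries was most like that of a listed gene were sought among 13110 genes of sufficient level. For Derl3 the nearest were Eaf1, Pdik1l, Med7, Pnliprp2, Smchd1, Lrrc47, Larp1 and Smarcc1, with r from 0.994 to 0.983. Jchain ranked 18, Mzb1 27, Derl1 48 and Hspa5 1485 by r with Derl3, while Ms4a1 ranked 2426 and Tnfrsf17 2852. For Jchain the nearest were Wdr3, Upp1, Gsdmc2, Ttc13, Isg20l2, Pdcd11, Pnliprp2 and Smchd1 (0.991 to 0.983), and for Cd79a they were Clcc1, Gm52305, Cd22, Hvcn1, Ccr6, 5830428M24Rik, Fam50a and Uri1 (0.999 to 0.992). Cd22 and Ccr6 of the latter are B cell genes. The likeness rests on 6 points that share their scaling, and it describes these libraries only.

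Other cell types differed between the same libraries. The r of single genes with the plasma cell level had a median of 0.05 over 16342 genes, 0.86 over the B cell list, 0.47 over the ER list (above 0 for 67 of 76 genes), 0.56 over goblet cell genes, -0.03 over epithelial genes, -0.86 over T cell genes and -0.88 over enteroendocrine genes. The enteroendocrine genes were split, with 3 of 10 above 0. The mean log2 CPM of the 18 goblet cell genes, another secretory cell with a large ER, was 8.98, 8.62 and 9.31 in NSD2fl/fl and 8.83, 8.27 and 8.53 in NSD2∆IE, nearly the order of the plasma cell level. This mean did not stand for every goblet cell gene. Of the 18, 13 had an r above 0 with the plasma cell level, whereas Muc2, Spdef, Agr2, Creb3l4 and Galnt12 were below 0. The mean of the 12 T cell genes ran the other way, at 1.70, 2.19 and 1.51 in NSD2fl/fl and 1.91, 2.34 and 2.36 in NSD2∆IE, although 3 of the 12 had an r above 0. Smooth muscle genes, 8 of 8 above 0 with a median log2 fold change of 1.22, and adipocyte genes, 5 of 5 above 0 with a median of 2.43, had 6 and 2 genes higher at the study's threshold, beside 8.05% of all genes. The level of the smooth muscle list ranged from 7.27 to 8.84 in NSD2fl/fl and from 9.12 to 10.25 in NSD2∆IE, and that of the adipocyte list from -0.80 to 1.26 and from 1.81 to 3.54. Their part in the values of the 9 genes was not tested.

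**Figure D5:**
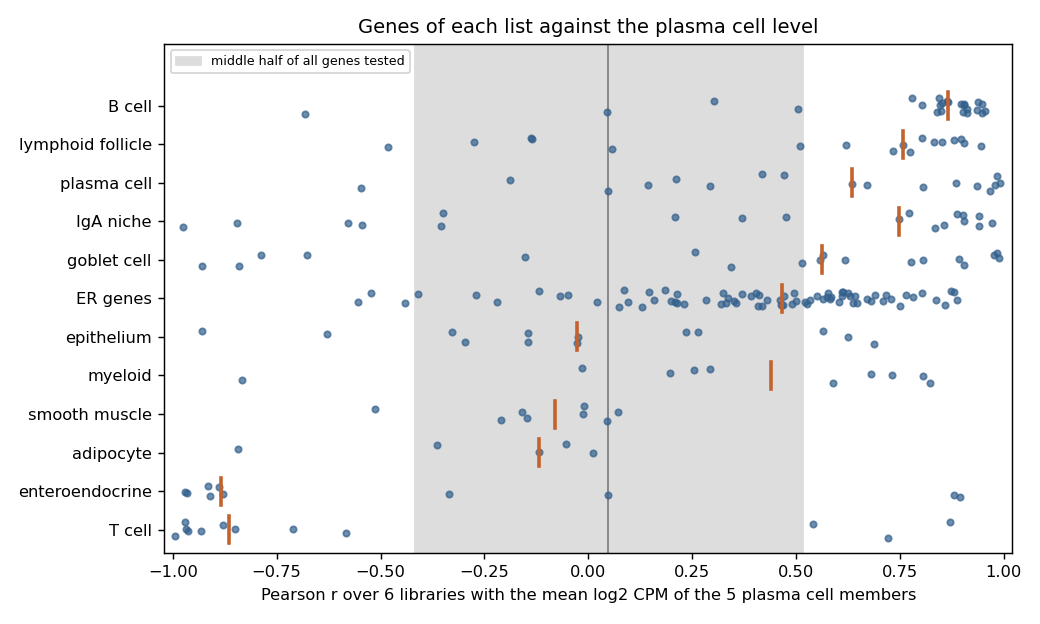
Pearson r over 6 libraries between each gene of a list (points) and the mean log2 CPM of the 5 plasma cell genes, with the list medians as orange bars and the central range of all genes tested in grey. B cell genes sit mostly at the right (median 0.86), ER genes are spread around 0.47, and T cell and enteroendocrine genes sit mostly at the left (medians -0.86 and -0.88).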

How the data were processed

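Colon RNA of 3 NSD2fl/fl and 3 NSD2∆IE libraries was analysed, grouped by the genotype in the labels. The authors deposited whole-number read counts per gene and FPKM values. The submitters' processing notes list fastp, HISAT2, HTSeq, R 3.2.0 and mm10, and the annotation and use of strand were not given in the sources used here. For 17863 genes with reads in every library, deposited counts and FPKM implied 1 gene length to within 0.0783 bases, so the FPKM add no scaling beyond the library totals. No column was left unused (0).

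Counts were tested with edgeR 4.0.16 in R 4.3.3 (filterByExpr, TMM factors, quasi-likelihood test, two-sided, no covariates), with Benjamini-Hochberg adjustment over 16347 genes. CPM are scaled by TMM factors, and log2 CPM used a prior count of 2. The SE is the size of the log2 fold change over the square root of F. DESeq2 1.42.0, limma 3.58.1 (voom, and log2 FPKM with a pseudocount of 1 or 0.1), other scalings and filters, a replicate block and libraries left out were alternatives. No 2 libraries agreed within sampling noise (chi-square per degree of freedom at least 35.5). A count of 0 allows up to 3 counts, at most 0.0848 CPM, and intervals cover counting error only. Same-numbered libraries deviated together with r of 0.501, 0.643 and -0.166, so the numbers were not taken to pair them. On simulated counts (16065 genes tested) 78 of the 100 genes given a 4-fold change and 18 of the 100 given a 2-fold change were called, beside 7 false calls.

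The 9 genes and the gene lists were chosen with earlier results of these data known. Named are the 9 genes, in each list every gene at an adjusted p under 0.05 and the 3 smallest p-values at an average log2 CPM of at least 1, set ER and plasma cell genes, and the 8 genes most like Derl3, Jchain and Cd79a. Of the genes set as label checks, Nsd2 and Xist are named. Cr2, Ccl28, Hoxb13 and the ratios were added after values were seen. Promoter windows are from RefSeq (GRCm38.p6). Of 13 immunoglobulin constant genes looked for by symbol, 0 were in the count tables, so these genes could not be analysed here. The values of 2 list genes are left out of the text, while list totals keep them.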

Additional observations from a re-analysis of the deposited data

How the results depend on the processing

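Each value was recomputed under up to 17 alternatives. Derl3, Jchain, Mzb1, Pou2af1 and Pigr had a log2 fold change below 0 in all 17, with Derl3 from -1.05 to -0.53, while Ms4a1 was below 0 in 15 and Tnfrsf17 in 13. The count of listed genes lower at the study's threshold, 1 as reported, was 0 with library totals alone and on log2(FPKM + 1) and log2(FPKM + 0.1), 2 (Mzb1 and Derl3) without the filter, with DESeq2, with the principal component covariate added after the data were seen and with the replicate block, 3 with limma-voom, and 0 to 5 with a library left out. Lower calls at that threshold over all genes, 361 as reported, were 142 with library totals alone and 108 and 138 on the FPKM scales. They were 607 of 24517 without the filter, 432 with DESeq2, 543 with the covariate, 602 with the replicate block and 594 with limma-voom. All genes called at an adjusted p under 0.05 numbered 466 with DESeq2, where 331 adjusted p were not given, against 5, and 3 to 5 with a library left out. The replicate block, in a design whose numbers do not pair the samples, called 5 genes in all. The median of the listed genes was -1.06 to -0.24 with a library left out and -0.0012 with the covariate. The enteroendocrine median was 0.44 with limma-voom and 0.36 and 0.41 on log2(FPKM + 1) and log2(FPKM + 0.1), and -0.27 to 0.65 with a library left out. That of the adipocyte list was 1.15 on log2(FPKM + 1) and 1.27 to 3.25 with a library left out, of the IgA niche list 0.052 on log2(FPKM + 0.1), 0.071 with the covariate and -0.21 to 0.012 with a library left out, and of the T cell list 0.20 with the covariate and 0.23 to 0.84. The r of B and plasma cell levels was 0.947 on log2(FPKM + 1) and 0.889 to 0.969 with a library left out, and that of plasma cell and ER levels was -0.37 to 0.74. The cause of these changes was not tested. With 3 libraries a group and a common dispersion of 0.0967, the spread between libraries and not depth limits most of these values. Some B cell genes had few counts in NSD2fl/fl 2, such as Ms4a1 with 29 and Cr2 with 6, and counting error adds to the spread there. Cd79a and Cd79b had 238 and 115 counts in that library.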

Other observations

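Of the lists that served as markers of other cells, the goblet cell list of 18 genes had its median log2 fold change at -0.16 (values of -0.26, -0.29 and -0.32 when NSD2fl/fl 1, NSD2fl/fl 2 or NSD2∆IE 1 was left out, and -0.045 with library totals alone), with Sytl2 at -0.54 and Retnlb, an antimicrobial resistin-like protein, at -2.19 lower at the study's threshold and Klk1 at -0.30 next by p (edgeR adjusted p of 0.302, 0.378 and 0.553). Retnlb had 355, 949 and 2342 CPM in NSD2fl/fl and 185, 138 and 478 CPM in NSD2∆IE, with no correspondence to the B cell order. Among 13 epithelial genes the median was -0.30 (-0.066 with NSD2fl/fl 2 left out and -0.45 with NSD2fl/fl 1 left out), and Elf3, an epithelial transcription factor, at -0.60 was lower at the study's threshold, with Cdh1 at -0.42 and Cdh17 at -0.44 next. Of 12 T cell genes 9 were above 0 with a median of 0.53, among them the kinase gene Zap70 at 0.65 and the adaptor gene Lat at 0.64. For 10 myeloid genes the median was 0.07 (-0.046 when NSD2fl/fl 2 was left out and 0.20 when NSD2fl/fl 3 was), with C1qa at 0.23, Itgam at 0.25 and Adgre1 at 0.26. For 10 enteroendocrine genes it was 0.0026, with Scg2 at 0.70, Pyy at -0.51 and Neurod1 at -0.51. The smooth muscle genes Mylk, Myh11 and Acta2 stood at 1.20, 1.34 and 1.20, and the adipocyte genes Fabp4, Cfd and Adipoq at 1.11, 3.49 and 2.70. None of these genes had an adjusted p under 0.05 by edgeR or limma-voom, whereas DESeq2 called Sytl2, Elf3, Mylk, Myh11 and Fabp4, beside 466 of all genes. Over all genes tested, 2.21% were lower and 8.05% higher at the study's threshold. At an unadjusted p under 0.05 by edgeR there were 2 goblet cell, 1 epithelial, 1 T cell, 6 smooth muscle and 2 adipocyte genes, and no myeloid or enteroendocrine gene, beside 11.1% of all genes tested.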
